A study of Mus musculus with 10 samples.

Results

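The comparison of FoxP3+CD25- with FoxP3+CD25+ cells from Satb1 knockout (KO) mice asks which genes go with CD25 among FoxP3-positive T cells of the same animals. Its members were chosen by title, as the libraries of KO 1 and KO 2 sorted as Gfp+ CD25- or Gfp+ CD25+, and they are 4 of the 10 libraries in the series. The series measured RNA by sequencing in CD4+ T cells from the spleens of C57BL/6 mice, sorted by a FoxP3-Gfp reporter, read here as FoxP3, and by CD25. Its 5 groups hold 2 libraries each: KO FoxP3+CD25-, KO FoxP3+CD25+, KO FoxP3-CD25-, wild-type (WT) FoxP3+CD25+ and WT FoxP3-CD25-. The KO genotype is Satb1 F/F with ThPOK-cre and FoxP3-Gfp, and ThPOK-cre acts in cells of the CD4 lineage, so other cells of these mice are not targeted. The labels give no age or sex, do not say whether the WT mice carry the cre, and imply rather than state that libraries with the same KO number came from 1 mouse. The 4 libraries held between 6317356 and 9018519 counts on genes, and the 10 libraries between 6094952 and 12410064. In the 4 libraries 27.7% to 28% of the tallied reads were counted on genes and 39% to 42% lay on no annotated gene. The mitochondrial share was 1.36% and 1.46% in the KO FoxP3+CD25- libraries and 1.66% and 1.94% in the KO FoxP3+CD25+ libraries. The 2 groups did not overlap in this share, and its part in the contrast was not tested.

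Regulatory T cells (Treg) restrain other immune cells, and the transcription factor FoxP3 sets up and keeps their gene program. CD25, made from Il2ra, is the chain that gives the receptor for interleukin-2 (IL-2) its high affinity; with the chains of Il2rb and Il2rg it signals through the kinases JAK1 and JAK3 to STAT5, and most splenic Treg carry it. SATB1 is a nuclear protein that organises chromatin in developing thymocytes and T cells.

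Levels are CPM, read counts relative to the total of the library, scaled by the trimmed mean of M values (TMM), and a level is given in replicate order, KO 1 then KO 2. A gene is called when its adjusted p in edgeR is under 0.05 in a fit of 13796 genes with the mouse as a block; log2 fold changes are FoxP3+CD25- over FoxP3+CD25+. A floor of 3 counts corresponds to 0.328 to 0.485 CPM in the 4 libraries, for counting error alone.

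Satb1, the targeted gene (GRCm38, chr17:51736187-51833290, strand -), had 1186 and 993 CPM in KO FoxP3+CD25- cells and 598 and 534 CPM in KO FoxP3+CD25+ cells. It had 841 and 682 CPM in KO FoxP3-CD25- cells, 379 and 478 CPM in WT FoxP3+CD25+ cells and 818 and 881 CPM in WT FoxP3-CD25- cells. The KO FoxP3+CD25+ libraries were above the WT FoxP3+CD25+ libraries and the FoxP3-CD25- libraries of the genotypes overlapped; since these gene-level counts sum all exons they check neither the deletion nor the genotype label. Between the KO FoxP3+ groups the 4 libraries did not overlap, and Satb1 was called higher in FoxP3+CD25- cells, with a log2 fold change of 0.94 (SE 0.08, adjusted p 2e-05).

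Il2ra and Foxp3 carry the sort and serve as a check of the gates. Il2ra (chr2:11642807-11693193, strand +) had 16.8 and 16.7 CPM in KO FoxP3+CD25- cells and 627 and 679 CPM in KO FoxP3+CD25+ cells, so the RNA followed the CD25 label in both mice. Its level in KO FoxP3-CD25- cells was 11.4 and 5.4 CPM. Foxp3 (chrX:7573644-7595245, strand +) had 361 and 318 CPM in KO FoxP3+CD25- cells and 739 and 646 CPM in KO FoxP3+CD25+ cells, against 38.9 and 19.5 CPM in KO FoxP3-CD25- cells. Both GFP-positive groups were above every GFP-negative library of the series, and within the GFP-positive cells the CD25- libraries lay below the CD25+ libraries, a log2 fold change of -1.03 (SE 0.14, adjusted p 0.000476). Ccdc22 had 25.1 and 18.9 CPM in the CD25- libraries and 51.1 and 51.2 CPM in the CD25+ libraries; 590 of its exonic bases overlap Foxp3 on the other strand, the strand setting of the counts is not stated, and its values cannot be told apart from Foxp3 reads.

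The CD4+ T-cell label was checked on 14 T-cell identity genes. Their summed level was 6839 and 6368 CPM in FoxP3+CD25- cells and 6857 and 6493 CPM in FoxP3+CD25+ cells. The 2 groups overlapped in this sum, and the median log2 fold change of the 14 genes was -0.05, beside 0.00 over all genes tested. Of the 14, 1 was called, beside 15.1% of the genes tested: Cd2, an adhesion receptor, which was lower, with 347 and 348 CPM against 479 and 489 CPM (adjusted p 0.0192). That call was lost without the mouse block (adjusted p 0.0663) and without any 1 of the 4 libraries (adjusted p 0.214 without FoxP3+CD25- replicate 1, 0.213 without FoxP3+CD25- replicate 2, 0.153 without FoxP3+CD25+ replicate 1 and 0.237 without FoxP3+CD25+ replicate 2). The T-cell receptor constant gene Trac (722 and 650 against 587 and 568 CPM), the adaptor Lat (646 and 555 against 570 and 486 CPM) and Zbtb7b, which encodes ThPOK (318 and 290 against 285 and 254 CPM), were not called. In fits of the 6 KO libraries alone and of the 4 compared libraries alone, 4 of the 14 were called higher, beside 1660 of 13224 and 1661 of 12894 genes tested, among them Trac (adjusted p 0.00104 and 0.0024), Lat (0.0114 and 0.021) and Zbtb7b (0.0253 and 0.0337). Chosen after their values were seen, Cd4 had 773 and 711 CPM against 806 and 749 CPM and Cd3e 510 and 464 CPM against 537 and 471 CPM, and neither was called in these fits or with 10 libraries.

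**Figure D1:**
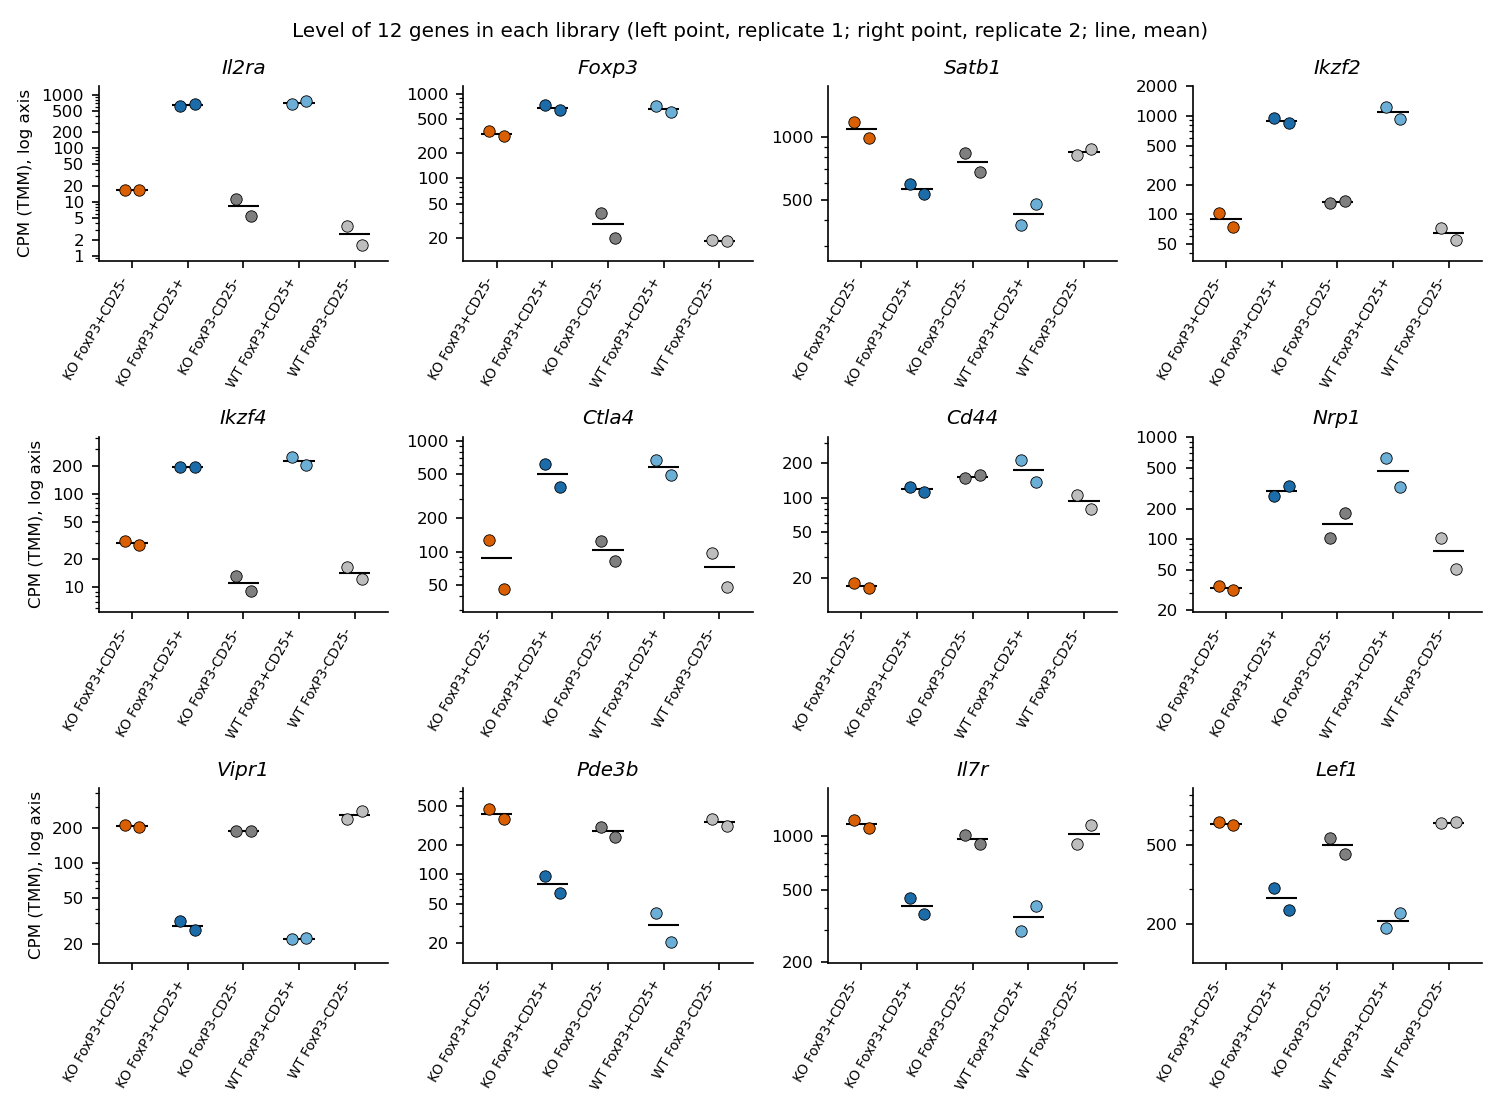
Level of 12 genes in each of the 10 libraries, in CPM on a log axis; points are replicates 1 and 2 and lines are group means. Il2ra, Ikzf2, Ikzf4 and Cd44 lie lower in each KO FoxP3+CD25- library than in each FoxP3+CD25+ library of the KO mice, and Satb1, Vipr1, Pde3b, Il7r and Lef1 lie higher.

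Of the 13796 genes tested, 2090 (15.1%) were called between the KO FoxP3+ groups, 849 higher (6.15%) and 1241 lower (9.0%) in FoxP3+CD25- cells. Without the mouse block 967 were called (7.01%), 311 higher and 656 lower, and each of the 967 was also called with the block and with the same sign. The 6 KO libraries alone gave 3672 called of 13224 tested, and the 4 compared libraries alone 3686 of 12894. The fitted fold was above 2 for 193 of the genes called higher and for 697 of those called lower, and above 4 for 51 and 378; 1 gene called higher and 22 called lower had no count in either library of the low group, so their fitted folds depend on the prior count. The libraries of the 2 groups did not overlap for 1996 of the called genes (95.5%), beside 49.3% of the genes tested. The log2 ratios of mouse 1 and mouse 2 correlated over the 13796 genes with r = 0.730, as a description, since genes are not independent replicates. Leaving out 1 library leaves 1 complete pair, whose spread is then taken from the other groups: the count fell to 806 without FoxP3+CD25- replicate 1, 618 without FoxP3+CD25- replicate 2, 773 without FoxP3+CD25+ replicate 1 and 775 without FoxP3+CD25+ replicate 2. In a bulk library, fewer cells of a type and less RNA per cell cannot be told apart.

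**Figure D2:**
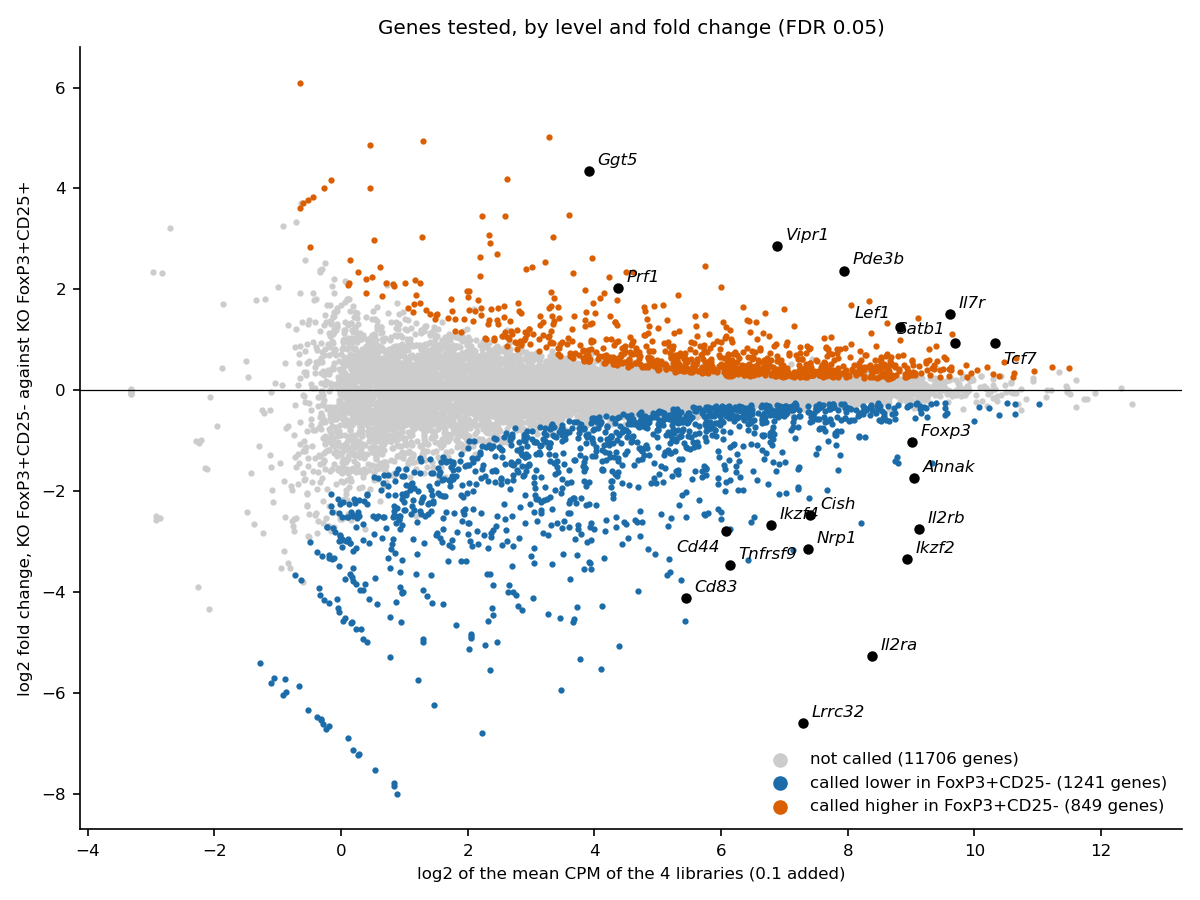
Genes tested, by the log2 of the mean CPM of the 4 KO FoxP3+ libraries and the log2 fold change of FoxP3+CD25- over FoxP3+CD25+ cells. Orange points are the 849 genes called higher and blue points the 1241 called lower, with Lrrc32 at -6.60 and Vipr1 at 2.85 among the genes named.

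The 10 genes of lowest p called higher, with libraries that do not overlap, had log2 fold changes from 1.12 to 4.34. Vipr1 (chr9:121642716-121672954, strand +), a receptor for vasoactive intestinal peptide, had 211 and 202 CPM in FoxP3+CD25- cells and 31.4 and 26.2 CPM in FoxP3+CD25+ cells. Both CD25- libraries were above both CD25+ libraries, by a log2 fold change of 2.85 (SE 0.10, adjusted p 7.92e-08), and KO FoxP3-CD25- cells had 187 and 187 CPM. Ggt5, a gamma-glutamyltransferase that acts on leukotriene C4, had 25.2 and 31.8 CPM against 1.07 and 1.7 CPM, a log2 fold change of 4.34 (SE 0.30). Pde3b, a phosphodiesterase that breaks down cyclic nucleotides, had 461 and 363 CPM against 95.7 and 64.9 CPM, a log2 fold change of 2.37 (SE 0.14). For each of these 3 genes the KO FoxP3-CD25- libraries were on the side of the FoxP3+CD25- libraries, above both FoxP3+CD25+ libraries. The filamin regulator Rflnb, listed under its older symbol Fam101b, had 537 and 460 CPM against 140 and 154 CPM, and the small GTPase gene Arl4c had 715 and 901 CPM against 260 and 342 CPM. The others were Il7r, Klhdc2 (1.53), Gramd1a (1.12), Fam78a (1.13) and Klhl5 (1.49), given as log2 fold changes.

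The 10 genes of lowest p called lower had log2 fold changes from -6.60 to -2.04. They were Il2ra, Lrrc32, Ikzf2, Ikzf4, Tnfrsf9, Cish, Cd44, P2rx7, Tiam1 and Endod1. P2rx7, a channel opened by extracellular ATP, had 51.4 and 50.7 CPM in FoxP3+CD25- cells and 206 and 212 CPM in FoxP3+CD25+ cells, and the libraries of the 2 groups did not overlap (log2 fold change -2.04, SE 0.09). Tiam1, an exchange factor that activates the GTPase Rac, had 25.1 and 31 CPM against 247 and 258 CPM. KO FoxP3-CD25- cells had 96.1 and 134 CPM of Tiam1, between the 2 FoxP3+ groups. Endod1, with 20.9 and 19.4 CPM against 115 and 99.3 CPM, also had intermediate levels in KO FoxP3-CD25- cells (58.4 and 61.9 CPM).

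Among 38 genes of the Treg signature, 37 were called lower in FoxP3+CD25- cells, beside 9.0% of the genes tested, and their median log2 fold change was -3.30, beside 0.00 over all genes tested. Between 34 and 37 were called lower when any 1 of the 4 libraries was left out. The signature holds Il2ra and Foxp3, which the sort used, and genes of the list were drawn from knowledge of CD25+ Treg. Some of the 38 are also members of lists given below, so the counts of the lists are not independent. Lrrc32 (chr7:98489283-98502181, strand +), which encodes GARP, the surface anchor of latent TGF-beta, had 4.2 and 2.41 CPM in FoxP3+CD25- cells and 330 and 290 CPM in FoxP3+CD25+ cells. Its CD25- libraries lay just above the KO FoxP3-CD25- libraries (1.32 and 0 CPM; adjusted p 0.0383) and below the CD25+ libraries, a log2 fold change of -6.60 (SE 0.24, adjusted p 4.98e-08). Ikzf2, encoding the transcription factor Helios, had 103 and 74.2 CPM against 944 and 848 CPM, a log2 fold change of -3.35 (SE 0.12). KO FoxP3-CD25- cells had 129 and 136 CPM of Ikzf2, above both FoxP3+CD25- libraries, and that difference was called (log2 fold change of FoxP3+CD25- over FoxP3-CD25- cells -0.61, adjusted p 0.00926). Ikzf4, encoding the related factor Eos, had 31.4 and 28.7 CPM against 192 and 192 CPM, a log2 fold change of -2.68 (SE 0.11). For Ikzf4 the order was different: KO FoxP3-CD25- cells had 13.2 and 9.09 CPM, below both FoxP3+CD25- libraries (log2 fold change 1.44, adjusted p 0.00016).

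Other members of the signature had lower levels in FoxP3+CD25- cells as well. Nrp1, the semaphorin and VEGF co-receptor neuropilin-1, had 35.1 and 31.7 CPM in FoxP3+CD25- cells, 264 and 330 CPM in FoxP3+CD25+ cells and 102 and 180 CPM in KO FoxP3-CD25- cells. For Nrp1 the FoxP3+CD25- libraries were the lowest of the 10, with a log2 fold change of -3.15 from FoxP3+CD25+ cells (SE 0.17, adjusted p 9.54e-07) and -2.05 from FoxP3-CD25- cells (adjusted p 5.03e-05). Itgae, encoding the integrin CD103, had 4.85 and 2.41 CPM against 79.3 and 84.6 CPM, and Tnfrsf18, encoding GITR, had 68.9 and 71.7 CPM against 178 and 199 CPM; both genes were picked after their values were seen. For both the 2 groups did not overlap. Samd9l, also named after its value was seen because it is the 1 of the 38 that was not called, had 449 and 409 CPM against 445 and 473 CPM, with overlapping groups.

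The genes of IL-2 and common gamma chain signalling were described from ligand to target. Of 23 tested, 4 were called higher and 10 lower in FoxP3+CD25- cells, beside 6.15% and 9.0% of the genes tested, with a median log2 fold change of -0.13. The 10 include Il2ra, which the sort used, and Socs2, and both are also counted in the Treg signature. Without the mouse block the counts were 2 and 7. Without FoxP3+CD25- replicate 1 they were 2 and 6, without FoxP3+CD25- replicate 2 they were 1 and 5, without FoxP3+CD25+ replicate 1 they were 1 and 7, and without FoxP3+CD25+ replicate 2 they were 2 and 6. Il2rb, the signalling chain shared by the receptors for IL-2 and IL-15, had 169 and 121 CPM in FoxP3+CD25- cells and 1096 and 858 CPM in FoxP3+CD25+ cells, and KO FoxP3-CD25- cells had 268 and 283 CPM. For Il2rb the FoxP3+CD25- libraries were below both other KO groups, with a log2 fold change of -2.76 from FoxP3+CD25+ cells (SE 0.19, adjusted p 4.81e-06). Il2rg, the common gamma chain, chosen after its values were seen, had 279 and 270 CPM against 277 and 271 CPM. These libraries overlapped, and the log2 fold change was 0.00, with a 95% interval from -0.17 to 0.18; 728 exonic bases of Il2rg are shared with the annotated transcript Gm20489.

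Il7r (chr15:9505788-9530176, strand -), the receptor chain for IL-7, a cytokine on which naive T cells depend, ran the other way from Il2ra and Il2rb. It had 1221 and 1100 CPM in FoxP3+CD25- cells, 451 and 369 CPM in FoxP3+CD25+ cells and 1013 and 904 CPM in KO FoxP3-CD25- cells. The FoxP3+CD25- libraries were the higher ones, by a log2 fold change of 1.51 (SE 0.08, adjusted p 6.49e-07), and did not overlap the FoxP3+CD25+ libraries. Of the genes that carry the signal, Jak1 had 1464 and 1247 CPM against 1187 and 1141 CPM and Stat5b had 358 and 335 CPM against 354 and 328 CPM; both were named after their values were seen and neither was called, although Jak1 was called higher in the 6 KO libraries alone (adjusted p 0.00437) and in the 4 compared libraries alone (0.0117). The 95% interval of the Stat5b log2 fold change ran from -0.15 to 0.19. Their partners Jak3 and Stat5a, also named afterwards, were called lower with the mouse block and not without it: Jak3 had 268 and 272 CPM against 329 and 362 CPM (log2 fold change -0.36, adjusted p 0.036, and 0.159 without the block) and Stat5a had 109 and 94.1 CPM against 141 and 129 CPM (-0.41, 0.00686 and 0.0653); Jak3 was also not called without FoxP3+CD25- replicate 1 (0.196), without FoxP3+CD25- replicate 2 (0.351), without FoxP3+CD25+ replicate 1 (0.206) or without FoxP3+CD25+ replicate 2 (0.321); Stat5a was also not called without FoxP3+CD25- replicate 1 (0.0643), without FoxP3+CD25- replicate 2 (0.184), without FoxP3+CD25+ replicate 1 (0.109) or without FoxP3+CD25+ replicate 2 (0.126).

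Among genes that the receptor induces or that act on its signal, 3 that were lower in FoxP3+CD25- cells are given. Cish (chr9:107296026-107302784, strand +), a STAT5-induced inhibitor of cytokine receptors, had 56.9 and 45.7 CPM in FoxP3+CD25- cells and 316 and 256 CPM in FoxP3+CD25+ cells. The 2 groups did not overlap (log2 fold change -2.48, SE 0.10, adjusted p 2.19e-07), and KO FoxP3-CD25- cells, with 47.6 and 32.1 CPM, were at the level of the CD25- cells. Socs2, a suppressor of cytokine signalling, had 0.647 and 0.766 CPM against 34.9 and 32.2 CPM, a log2 fold change of -5.54 (SE 0.51). Pim1, a kinase that promotes survival, had 189 and 210 CPM against 404 and 349 CPM, a log2 fold change of -0.92 (SE 0.10). For Socs2 and Pim1, both named after their values were seen, each CD25- library was below each CD25+ library, and neither call was lost when 1 library was left out. Mcl1, a survival gene outside that pattern and also named afterwards, had 1012 and 864 CPM against 1002 and 910 CPM and was not called. Pim2, a member of the same list named afterwards, went the other way, with 49.9 and 50.4 CPM against 40.1 and 35.1 CPM. It was called higher in edgeR (log2 fold change 0.42, adjusted p 0.0196), a call lost without the mouse block (adjusted p 0.0862) and when 1 library was left out.

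**Figure D3:**
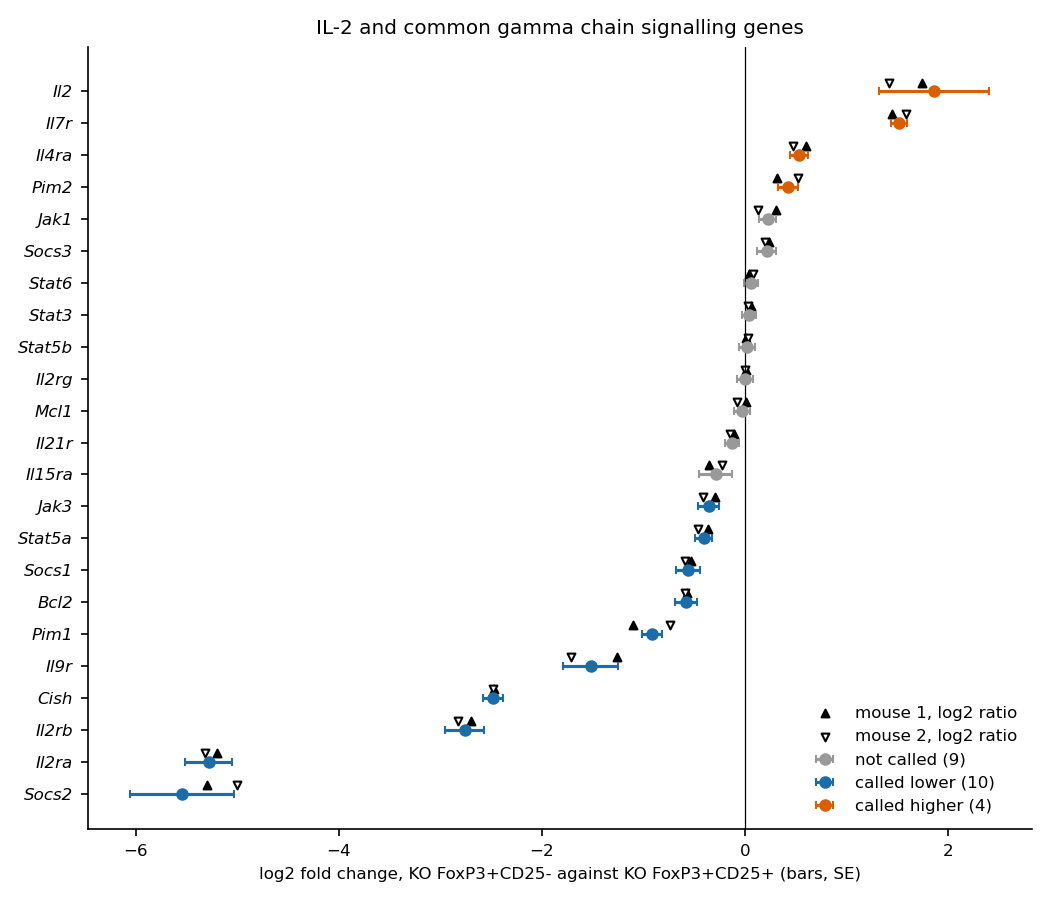
Log2 fold change of FoxP3+CD25- over FoxP3+CD25+ cells for 23 genes of IL-2 and common gamma chain signalling, with the SE of the fit as bars and the log2 ratio of each mouse as triangles. Il2ra, Il2rb, Cish and Socs2 lie at -5.28, -2.76, -2.48 and -5.54, Il2rg at 0.00 and Il7r at 1.51, and the 2 mice lie on the same side for each called gene.

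STAT proteins bind the letters TTCNNNGAA, which read the same on both strands, so the promoter sequences of Cish, called lower, and Il7r, called higher, are shown as examples of both directions, 250 bases before to 50 bases after the start, from RefSeq on GRCm38.p6, with the matches in capitals. The window of Cish is chr9:107296409-107296708 (strand +), with 2 matches, and that of Il7r is chr15:9529827-9530126 (strand -), with 1 match.
Cish: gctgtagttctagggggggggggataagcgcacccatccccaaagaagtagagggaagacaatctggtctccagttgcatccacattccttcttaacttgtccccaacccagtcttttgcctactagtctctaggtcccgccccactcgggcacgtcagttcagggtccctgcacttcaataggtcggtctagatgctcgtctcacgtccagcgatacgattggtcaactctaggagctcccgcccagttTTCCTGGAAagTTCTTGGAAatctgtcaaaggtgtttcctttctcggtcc
Il7r: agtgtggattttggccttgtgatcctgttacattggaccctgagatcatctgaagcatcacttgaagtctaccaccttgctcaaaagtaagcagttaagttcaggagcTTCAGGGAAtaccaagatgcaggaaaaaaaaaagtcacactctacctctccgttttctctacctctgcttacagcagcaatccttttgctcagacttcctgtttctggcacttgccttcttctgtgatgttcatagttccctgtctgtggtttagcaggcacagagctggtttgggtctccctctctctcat
The windows show the letters on both the gene called lower and the gene called higher, and a match is a description, not a bound site. Both windows hold a match and do not stand for the other genes of IL-2 signalling. Of all 32851 promoter windows in the table, 8.30% hold the motif. A comparison of motif shares between called genes and all genes tested was void, because a window was found by symbol for 1474 of the 2090 called genes (70.5%), under the 80% needed.

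Inhibitory receptors dampen T-cell activation; of 13 tested, 8 were called lower, beside 9.0% of the genes tested, and 1 higher, about the share of the genes tested (6.15%), with a median log2 fold change of -1.01. Ctla4, which competes with CD28 for its ligands, had 128 and 46.1 CPM in FoxP3+CD25- cells and 620 and 385 CPM in FoxP3+CD25+ cells. The groups did not overlap, though mouse 1 was above mouse 2 in both (log2 fold change -2.64, SE 0.19, adjusted p 5.93e-06). Pdcd1, encoding PD-1, had 22.5 and 19.9 CPM against 71.7 and 71.3 CPM, a log2 fold change of -1.76 (SE 0.15). KO FoxP3-CD25- cells had 61 and 73.8 CPM of Pdcd1, so the FoxP3+CD25- libraries were the lowest of the 3 KO groups (log2 fold change from FoxP3-CD25- cells -1.68, adjusted p 7.9e-05). Tigit, a receptor for the nectin family protein CD155, had 8.08 and 10.7 CPM against 64.1 and 59.6 CPM, and Cd200, the ligand of an inhibitory receptor on myeloid cells, had 29.7 and 18.8 CPM against 78.3 and 66.3 CPM. Lag3, a receptor for MHC class II that was picked after its values were seen, had 4.53 and 6.24 CPM against 30.1 and 31.8 CPM. For these 3 genes the groups did not overlap and the CD25- libraries were lower. Ctla4 and Tigit are also counted in the Treg signature. Btla, named afterwards as a receptor without a call, had 161 and 145 CPM against 153 and 149 CPM. The 1 gene called higher, the collagen receptor Lair1, was named for that reason after its values were seen; it had 7.76 and 10.1 CPM against 2.9 and 2.75 CPM, and its call was lost without FoxP3+CD25- replicate 2 (adjusted p 0.132) and without FoxP3+CD25+ replicate 2 (adjusted p 0.126).

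Costimulatory receptors and members of the TNF family add to the signal of the antigen receptor; of 26 tested, 17 were called lower and 3 higher, beside 9.0% and 6.15% of the genes tested, with a median log2 fold change of -0.86. Without FoxP3+CD25- replicate 1, FoxP3+CD25- replicate 2 or FoxP3+CD25+ replicate 1, 1 was called higher, and without FoxP3+CD25+ replicate 2, 2 were. Tnfrsf9, encoding 4-1BB, had 13.9 and 9.85 CPM in FoxP3+CD25- cells and 128 and 130 CPM in FoxP3+CD25+ cells. Tnfrsf4, encoding OX40, had 17.8 and 13.2 CPM against 162 and 153 CPM, and Cd83, a surface protein of activated lymphocytes, had 5.33 and 4.27 CPM against 86.1 and 78.1 CPM. In all 3 genes the groups did not overlap, with log2 fold changes of -3.47 (SE 0.14), -3.36 (SE 0.17) and -4.12 (SE 0.19), and KO FoxP3-CD25- cells, with 9.26 and 8.43 CPM of Tnfrsf9, 22.5 and 26.7 CPM of Tnfrsf4 and 7.28 and 11.6 CPM of Cd83, were also below the FoxP3+CD25+ libraries. Tnfrsf1b, encoding the TNF receptor TNFR2, had 81.3 and 83.4 CPM against 336 and 315 CPM, a log2 fold change of -1.98 (SE 0.10). Cd40lg, encoding the CD40 ligand through which helper T cells act on B cells, went the other way, with 166 and 107 CPM against 57.5 and 46.9 CPM. Its FoxP3+CD25- libraries were the higher ones (log2 fold change 1.36, SE 0.11, adjusted p 1.08e-05) and lay in the range of KO FoxP3-CD25- cells (193 and 119 CPM) or just below it. Cd28, the main costimulatory receptor, had 454 and 344 CPM against 430 and 334 CPM and was not called; Cd28, Icos and Cd40lg were named after their values were seen. Icos had 72.1 and 57.3 CPM against 190 and 165 CPM, lower in each FoxP3+CD25- library. Of the 17 called lower, Tnfrsf18, Tnfrsf4, Tnfrsf9, Tnfrsf1b, Cd83 and Icos are also counted in the Treg signature.

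Of 24 tested genes of suppression and TGF-beta activation, 16 were called lower and 3 higher, beside 9.0% and 6.15% of the genes tested, with a median log2 fold change of -1.09. The 16 share members with the Treg signature, among them Lrrc32, Nrp1, Nt5e, Entpd1, Il10 and Itgb8. Il12a, which encodes a chain of IL-35, had no count in the 4 libraries, which allows up to 0.328 to 0.485 CPM. Itgb8, the integrin chain that releases active TGF-beta, had 4.04 and 6.35 CPM in FoxP3+CD25- cells and 64.4 and 66 CPM in FoxP3+CD25+ cells. Nt5e, encoding CD73, which makes adenosine, had 111 and 119 CPM against 354 and 336 CPM, and Entpd1, encoding CD39, which acts before it on ATP, had 1.29 and 1.31 CPM against 24.1 and 25.9 CPM. The groups did not overlap for these 3 genes, with log2 fold changes of -3.66 (SE 0.25), -1.59 (SE 0.10) and -4.30 (SE 0.39). Il10, a suppressive cytokine, had 2.26 and 0.875 CPM against 13.4 and 7.34 CPM (log2 fold change -2.78, SE 0.47, adjusted p 0.00232). Its libraries did not overlap, but the call was lost without FoxP3+CD25- replicate 2 (adjusted p 0.105) and without FoxP3+CD25+ replicate 1 (adjusted p 0.0743). Genes on the receiving side of TGF-beta moved in both directions: Tgfbr2, the chain that binds the ligand, had 860 and 725 CPM against 460 and 435 CPM, and Tgfbr1, the chain that signals, had 76.5 and 67 CPM against 154 and 150 CPM. The FoxP3+CD25- libraries were higher for Tgfbr2 (log2 fold change 0.82, SE 0.08) and lower for Tgfbr1 (log2 fold change -1.09, SE 0.13). Prf1, encoding the pore-forming perforin, had 30.9 and 35.2 CPM against 7.93 and 8.39 CPM, higher in FoxP3+CD25- cells, while Gzmb, the protease that enters through such pores, had 0.485 and 0.109 CPM against 7.63 and 3.54 CPM, lower in them. The Gzmb levels in FoxP3+CD25- cells rest on 3 and 1 counts, at or under the floor of 3 counts (log2 fold change -4.24, SE 0.56). Entpd1, Tgfbr1, Tgfbr2, Prf1 and Gzmb were named after their values were seen.

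Genes of naive and recirculating T cells were mostly higher in FoxP3+CD25- cells: of 28 tested, 16 were called higher, beside 6.15% of the genes tested, and 1 lower, with a median log2 fold change of 0.54. The 16 include Satb1, the targeted gene. Lef1, a transcription factor that acts with Tcf7 in naive T cells, had 652 and 630 CPM in FoxP3+CD25- cells and 304 and 236 CPM in FoxP3+CD25+ cells. The FoxP3+CD25- libraries did not overlap the FoxP3+CD25+ libraries and were higher, by a log2 fold change of 1.26 (SE 0.09, adjusted p 8.28e-06); 1208 exonic bases of Lef1 are shared with an antisense transcript, Gm43352. Tcf7 had 1626 and 1740 CPM against 881 and 884 CPM, and S1pr1, the receptor that lets T cells leave lymphoid organs, had 873 and 864 CPM against 471 and 476 CPM. Dapl1, a gene of naive T cells, had 28 and 47.2 CPM against 7.48 and 7.21 CPM. For these 3 genes, each picked after its values were seen, the FoxP3+CD25- libraries were the higher ones, with log2 fold changes of 0.93 (SE 0.08), 0.87 (SE 0.11) and 2.35 (SE 0.18). Ccr7, a chemokine receptor that guides entry into lymph nodes, had 418 and 415 CPM against 318 and 292 CPM. Its groups did not overlap, and it was called higher with the mouse block (adjusted p 0.00584) and not without it (adjusted p 0.0588); Ccr7 was also not called without FoxP3+CD25- replicate 2 (0.186), without FoxP3+CD25+ replicate 1 (0.109) or without FoxP3+CD25+ replicate 2 (0.121). Id3, an inhibitor of E proteins, was not called, with 58.5 and 51.9 CPM against 67.9 and 67.3 CPM and a log2 fold change of -0.30 (SE 0.12, adjusted p 0.126), but it was called lower in the 6 KO libraries alone (0.00925) and in the 4 compared libraries alone (0.00575). Klf2, a factor that induces S1pr1, was not called either, with 802 and 752 CPM against 563 and 587 CPM, and was called higher in those 2 fits (7.34e-07 and 1.34e-06). The 1 gene called lower, Igf1r, a growth factor receptor, had 63.4 and 61.2 CPM against 142 and 151 CPM; it, Klf2 and Ccr7 were named after their values were seen.

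Of 36 tested genes of effector and memory T cells, 21 were called lower and 1 higher, beside 9.0% and 6.15% of the genes tested, with a median log2 fold change of -1.27. Cd44 (chr2:102811141-102901665, strand -), the hyaluronan receptor that marks antigen-experienced T cells, had 17.9 and 16.1 CPM in FoxP3+CD25- cells and 124 and 112 CPM in FoxP3+CD25+ cells. It had 148 and 157 CPM in KO FoxP3-CD25- cells, 212 and 137 CPM in WT FoxP3+CD25+ cells and 105 and 80.1 CPM in WT FoxP3-CD25- cells. The FoxP3+CD25- libraries were the lowest of the 10, with a log2 fold change of -2.80 from FoxP3+CD25+ cells (SE 0.11, adjusted p 1.94e-07) and -3.17 from FoxP3-CD25- cells (adjusted p 2.17e-07). Ahnak, a very large scaffold protein, had 249 and 239 CPM against 832 and 803 CPM, and KO FoxP3-CD25- cells had 950 and 1095 CPM. Itgb1, an integrin chain that rises on memory T cells and that was picked after its values were seen, had 148 and 123 CPM against 335 and 329 CPM and 745 and 1130 CPM in KO FoxP3-CD25- cells. For both genes the 3 KO groups did not overlap and the order was FoxP3+CD25-, FoxP3+CD25+, FoxP3-CD25- from low to high. Ccr8, a chemokine receptor of tissue T cells, had 3.56 and 1.2 CPM against 28.8 and 23.3 CPM, lower in each FoxP3+CD25- library. The 1 gene called higher was Id2, an inhibitor of E proteins, named afterwards for that reason, with 109 and 70.8 CPM against 51 and 36 CPM (adjusted p 0.000149). Cd69, an early activation marker also named afterwards, had 523 and 272 CPM against 474 and 338 CPM and was not called.

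**Figure D4:**
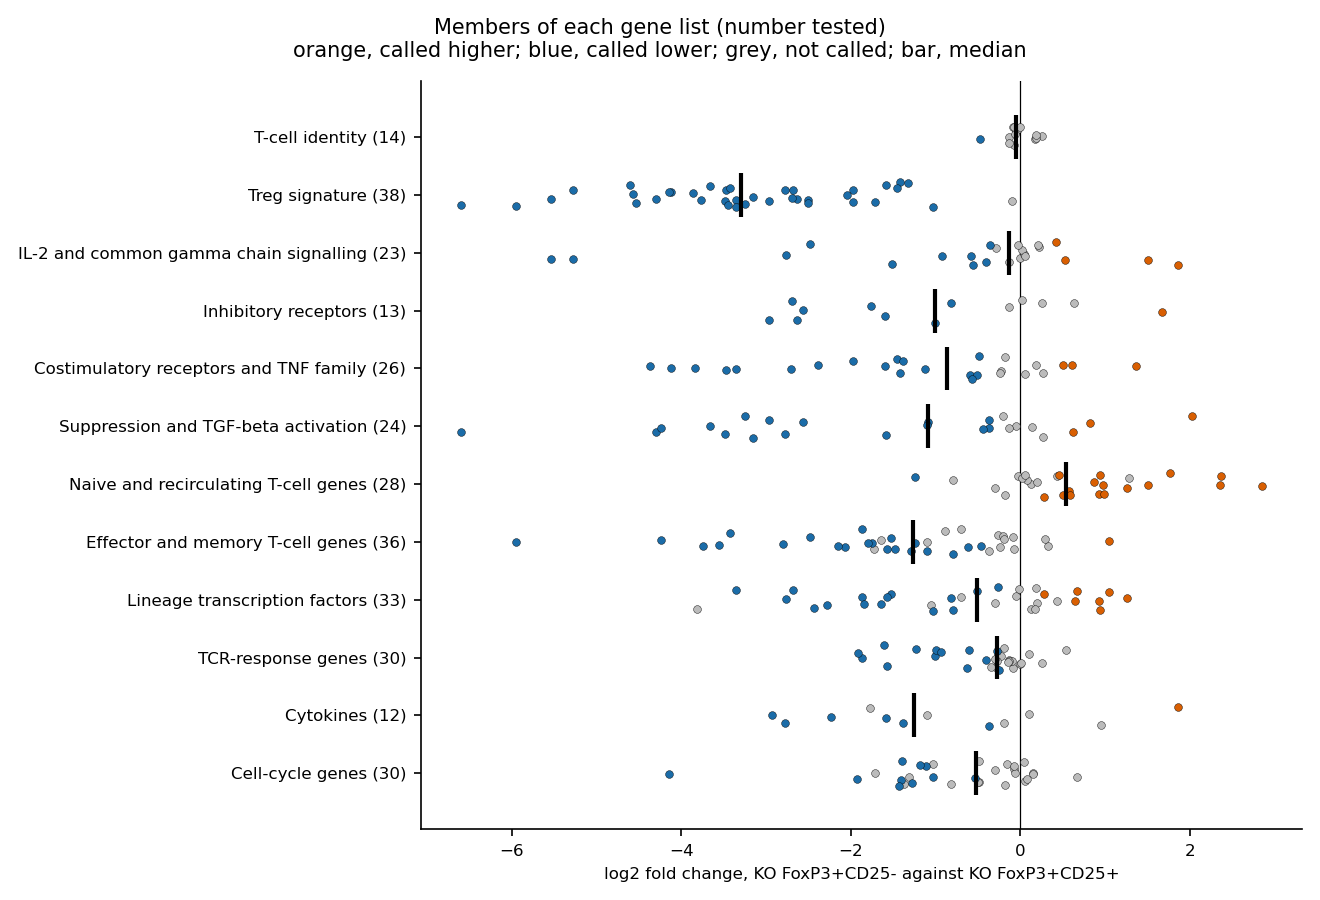
Log2 fold change of FoxP3+CD25- over FoxP3+CD25+ cells for the tested members of 12 gene lists; each point is a gene, coloured by its call, and the bars are list medians. The median is -3.30 for the Treg signature, -1.27 for effector and memory genes, 0.54 for naive and recirculating genes and -0.05 for T-cell identity genes.

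Of 33 transcription factors that set T-cell lineages, 15 were called lower and 7 higher, beside 9.0% and 6.15% of the genes tested, with a median log2 fold change of -0.51. The 15 include Foxp3, which the sort used, and Ikzf2 and Ikzf4, which are also in the Treg signature. The 7 include Satb1, the targeted gene, and Lef1 and Tcf7, and these 3 are also counted among the naive genes. Irf4, a factor induced through the antigen receptor, had 36.9 and 17 CPM in FoxP3+CD25- cells and 124 and 68.9 CPM in FoxP3+CD25+ cells. Mouse 1 was above mouse 2 in both groups, and the groups did not overlap (log2 fold change -1.87, SE 0.11, adjusted p 1.92e-06). Maf, which drives Il10 in T cells, had 88.1 and 65.8 CPM against 256 and 189 CPM, and Rora had 39.6 and 28.7 CPM against 107 and 93.5 CPM; Ikzf1, encoding Ikaros, had 902 and 885 CPM against 584 and 552 CPM. These 3 were picked after their values were seen, and their groups did not overlap: Maf and Rora were lower in FoxP3+CD25- cells and Ikzf1 higher. KO FoxP3-CD25- cells had 227 and 248 CPM of Maf and 99.9 and 99.9 CPM of Rora, above the FoxP3+CD25- libraries for both genes.

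TCR-response genes are induced when the antigen receptor is engaged; of 30 tested, 13 were called lower, beside 9.0% of the genes tested, with a median log2 fold change of -0.27. Without the mouse block 6 were called lower, beside 656 of the 13796 genes tested. Fosb, an AP-1 subunit, had 80.5 and 68.8 CPM against 217 and 227 CPM, and Rel, an NF-kappaB subunit, had 104 and 93.7 CPM against 192 and 185 CPM. Irf8 had 16 and 22.3 CPM against 63.5 and 54.8 CPM. For Fosb, Rel and Irf8 both FoxP3+CD25- libraries were lower than both FoxP3+CD25+ libraries, with log2 fold changes of -1.57, -0.94 and -1.61 (SE 0.12, 0.09 and 0.15). Nr4a1, an orphan nuclear receptor used as a readout of receptor signals, had 431 and 211 CPM against 483 and 285 CPM, and Tnfaip3, which restrains NF-kappaB, had 1850 and 632 CPM against 1823 and 790 CPM. Neither was called with 10 libraries, but Nr4a1 was called lower in the 6 KO libraries alone (adjusted p 0.000917) and in the 4 compared libraries alone (0.000489). Junb, an AP-1 subunit and the most abundant of the 30, had 2197 and 2036 CPM against 1763 and 1796 CPM; it was not called with 10 libraries and was called higher in the same 2 fits (adjusted p 0.00085 and 0.00407). Nr4a1, Tnfaip3 and Junb were named after their values were seen, and for Nr4a1 and Tnfaip3 the libraries of mouse 1 were above those of mouse 2 in each group.

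Of 23 cytokine genes, 12 had counts enough to be tested, and of these 6 were called lower, beside 9.0% of the genes tested, and 1 higher, about the share of the genes tested (6.15%), with a median log2 fold change of -1.25; Il9, Il17a, Il22, Csf2 and Il3 had no count in the 4 libraries. Without FoxP3+CD25- replicate 2, 3 were called lower. Csf1, the macrophage growth factor, had 3.72 and 5.36 CPM in FoxP3+CD25- cells and 18.9 and 23.7 CPM in FoxP3+CD25+ cells. Lta, encoding lymphotoxin alpha, had 21.3 and 18.8 CPM against 51.3 and 67.7 CPM, and Tnf had 9.05 and 10.8 CPM against 22.3 and 30 CPM. The groups did not overlap for these 3 genes, and FoxP3+CD25- cells had the lower levels (log2 fold changes -2.24, -1.58 and -1.39). Ifng, the cytokine of type 1 helper cells, had 0.808 and 0.547 CPM against 4.73 and 5.37 CPM, and KO FoxP3-CD25- cells had 27.1 and 26.3 CPM. For Ifng the FoxP3+CD25- libraries were the lowest of the 10 (log2 fold change from FoxP3+CD25+ cells -2.93, SE 0.49, adjusted p 0.002), and this call was lost without FoxP3+CD25- replicate 2 (adjusted p 0.0809). Il2, the ligand of the receptor above, was the 1 called higher; named after its values were seen, it had 2.1 and 2.52 CPM against 0.458 and 0.786 CPM, with an adjusted p of 0.0466 that rose to 0.0794 without the mouse block; Il2 was also not called without FoxP3+CD25- replicate 1 (0.173), without FoxP3+CD25- replicate 2 (0.357), without FoxP3+CD25+ replicate 1 (0.339) or without FoxP3+CD25+ replicate 2 (0.198).

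Cell-cycle genes depended on the block and on single libraries. Of 30 tested, 10 were called lower, beside 9.0% of the genes tested, with a median log2 fold change of -0.52. Without the mouse block 2 were called lower, near the share of the genes tested (656 of 13796). The count was 2 without FoxP3+CD25- replicate 1, 3 without FoxP3+CD25- replicate 2, 2 without FoxP3+CD25+ replicate 1 and 4 without FoxP3+CD25+ replicate 2. Mki67, a marker of cycling cells, had 15.4 and 6.67 CPM in FoxP3+CD25- cells and 45.5 and 15.2 CPM in FoxP3+CD25+ cells (adjusted p 0.000811, and 0.273 without the mouse block). Its groups overlapped, with mouse 1 above mouse 2 in both. E2f2, a factor that opens S phase, had 15 and 18.2 CPM against 46.8 and 35.6 CPM, and its groups did not overlap (log2 fold change -1.28, SE 0.16, adjusted p 0.000222). Mcm6, part of the helicase of replication, had 94.2 and 99.3 CPM against 166 and 120 CPM with adjusted p 0.0104, and 0.0501 without the mouse block; Mcm6 was also not called without FoxP3+CD25- replicate 1 (0.251) or without FoxP3+CD25+ replicate 1 (0.266). Bub1, a checkpoint kinase of mitosis, had 0.162 and 0 CPM against 2.75 and 0.524 CPM, few counts in 3 of the 4 libraries with adjusted p 0.0133, and 0.207 without the mouse block; Bub1 was also not called without FoxP3+CD25- replicate 1 (0.412), without FoxP3+CD25- replicate 2 (0.0827), without FoxP3+CD25+ replicate 1 (0.0984) or without FoxP3+CD25+ replicate 2 (0.0734). Pcna, a clamp of the replication fork named after its values were seen, had 101 and 96.7 CPM against 121 and 100 CPM and was not called.

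The WT comparison asks whether the genes that go with CD25 in KO FoxP3+ cells are those that separate WT Treg from WT FoxP3-CD25- cells, measured in libraries that the KO contrast does not use. In WT, 2634 genes were called (19.1%; 1504 without the mouse block), 1564 higher and 1070 lower in FoxP3+CD25+ cells. Of these, 1500 were called in the same direction in KO FoxP3+CD25+ over FoxP3+CD25- cells. They are 56.9% of the WT genes, beside 15.1% of all genes tested called in KO in either direction. Of the KO genes they are 71.8%, beside 19.1% of all genes tested called in WT in either direction. By direction, 969 of the WT-higher genes were called lower in the KO FoxP3+CD25- group. That is 62.0% of the WT-higher genes, beside 9.0% of the genes tested, and 78.1% of the KO-lower genes, beside 1564 of 13796. Of the WT-lower genes 531 were called higher. That is 49.6% of the WT-lower genes, beside 6.15% of the genes tested, and 62.5% of the KO-higher genes, beside 1070 of 13796. In the opposite direction 8 genes were called, 4 each way. Without the mouse block 785 genes were shared in the same direction, and without 1 library the shared count was 729 (FoxP3+CD25- replicate 1), 563 (FoxP3+CD25- replicate 2), 717 (FoxP3+CD25+ replicate 1) or 686 (FoxP3+CD25+ replicate 2). The log2 fold changes of KO FoxP3+CD25- over FoxP3+CD25+ and of WT FoxP3-CD25- over FoxP3+CD25+ cells correlated across the 13796 genes with r = 0.746, a description over genes that are not independent. Genes called higher in WT Treg had a median log2 fold change of -0.80 in the KO contrast, and genes called lower in WT Treg had 0.43.

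The 2 contrasts were then tested against each other gene by gene, as the sum of the KO log2 fold change (FoxP3+CD25- over FoxP3+CD25+) and the WT log2 fold change (FoxP3+CD25+ over FoxP3-CD25-), which is 0 where the shifts mirror each other in size. The contrasts differ in genotype as well as in the FoxP3 status of the CD25- cells. For a called gene these cannot be told apart. Of the 13796 genes, 43 were called (0.312%), 27 above 0 and 16 below; 2 were called without the mouse block, where 527 had an unadjusted p under 0.05 (1233 with the block). The count was 5 without FoxP3+CD25- replicate 1, 3 without FoxP3+CD25- replicate 2, 4 without FoxP3+CD25+ replicate 1 and 6 without FoxP3+CD25+ replicate 2. Foxp3 had the lowest p, with a difference of 4.16 (SE 0.21, adjusted p 1.4e-05), and Ccdc22, which overlaps it, had 4.94 (adjusted p 0.000244); both were also called without the mouse block and with any 1 library left out. The sort used FoxP3, on which the WT groups differ and the KO groups do not, so this difference is a check and no finding. Cd44 differed by -1.90 (SE 0.15, adjusted p 0.000244, and 0.121 without the mouse block), with a WT log2 fold change of 0.90 and a KO log2 fold change of -2.80. Gpm6b, a membrane glycoprotein gene, had 1.94 and 4.81 CPM in KO FoxP3+CD25- cells, 15.7 and 32.2 CPM in KO FoxP3+CD25+ cells and 65 and 182 CPM in KO FoxP3-CD25- cells, and it had 78.8 and 32.4 CPM in WT FoxP3+CD25+ and 93.3 and 52.9 CPM in WT FoxP3-CD25- cells. Its KO FoxP3+CD25- libraries were the lowest of the 10, and its difference was -3.30 (adjusted p 0.000244), which was not called without the mouse block (adjusted p 0.932) or without FoxP3+CD25- replicate 2 (adjusted p 0.0926). Il10ra, a receptor chain for IL-10, had 198 and 189 CPM in FoxP3+CD25- and 207 and 185 CPM in FoxP3+CD25+ cells of the KO, overlapping, against 120 and 145 CPM in WT FoxP3+CD25+ and 58 and 53.9 CPM in WT FoxP3-CD25- cells, which did not overlap. KO FoxP3-CD25- cells had 152 and 129 CPM of Il10ra, also above both WT FoxP3-CD25- libraries.

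The difference for Il10ra was 1.22 (adjusted p 0.00726). It was not called without the mouse block (adjusted p 0.113), without FoxP3+CD25- replicate 1 (0.09), without FoxP3+CD25- replicate 2 (0.299), without FoxP3+CD25+ replicate 1 (0.151) or without FoxP3+CD25+ replicate 2 (0.109). The ribosomal pseudogene Rps15a-ps4 was also among the 6 of lowest p, with a difference of -1.54 (adjusted p 0.00365), and its call too was lost without the mouse block and without any 1 of the 4 libraries (adjusted p 0.0839, 0.187, 0.126 and 0.0655 in the same order).

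**Figure D5:**
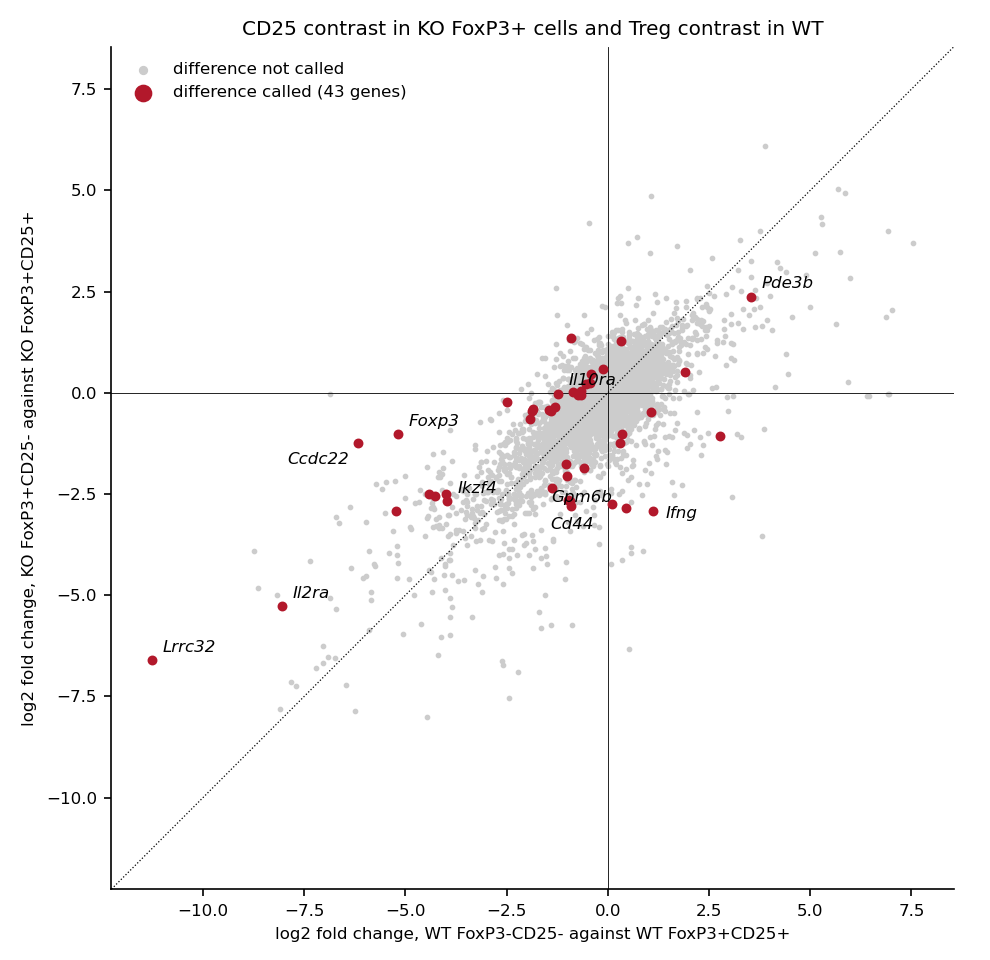
Log2 fold change of 13796 genes in KO FoxP3+CD25- over FoxP3+CD25+ cells against that in WT FoxP3-CD25- over FoxP3+CD25+ cells, with the line of equal change. Red points are the 43 genes whose 2 changes differ by the edgeR test, among them Foxp3, with -1.03 in KO, and Cd44, with -2.80.

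The GFP-negative cells of the same KO mice place these shifts, and since they are compared with libraries of the main contrast, values are given side by side and no overlap with that contrast is counted. Between KO FoxP3+CD25- and KO FoxP3-CD25- cells 786 genes were called (5.70%; 230 without the mouse block), 255 higher and 531 lower in FoxP3+CD25- cells. Between KO FoxP3+CD25+ and KO FoxP3-CD25- cells 1649 were called (12.0%; 874 without the block), 895 higher and 754 lower in FoxP3+CD25+ cells. For the 1564 genes higher in WT Treg, the median log2 fold change over KO FoxP3-CD25- cells was -0.08 for the FoxP3+CD25- group and 0.60 for the FoxP3+CD25+ group, beside 1.05 in the WT contrast and 0.01 and 0.00 over all genes tested. For the 1070 genes lower in WT Treg these medians were 0.01 and -0.43, beside -0.69 in the WT contrast. The FoxP3+CD25- medians near 0 cover genes that moved both ways. Of the 1564 genes, 84 were called higher and 225 lower in KO FoxP3+CD25- than in KO FoxP3-CD25- cells (25 and 88 without the block), and 743 and 10 in KO FoxP3+CD25+ cells (444 and 1). Of the 1070 genes, 53 were called higher and 86 lower in the FoxP3+CD25- group (7 and 38 without the block), and 2 and 510 in the FoxP3+CD25+ group (0 and 317). The log2 fold change of Foxp3 over the GFP-negative cells was 3.59 for the CD25- group and 4.62 for the CD25+ group. Cxcr3, a chemokine receptor of type 1 helper cells named after its values were seen, had its lowest levels in the CD25- group: it had 12.6 and 9.85 CPM in FoxP3+CD25- cells, 27 and 25.3 CPM in FoxP3+CD25+ cells and 104 and 121 CPM in FoxP3-CD25- cells, although its call between the FoxP3+ groups was lost without the mouse block (adjusted p 0.116).

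Markers of cells other than CD4+ T cells were read in the same libraries. Of 14 B-cell markers, 6 were tested and 4 were called lower, beside 9.0% of the genes tested, and their sum was 263 and 310 CPM in FoxP3+CD25- cells and 412 and 473 CPM in FoxP3+CD25+ cells. The most abundant was Ighm, with 248 and 295 CPM against 352 and 412 CPM, from a family of genes whose reads are hard to place, while the defining markers Ms4a1 and Pax5 were under 1 CPM in each of the 4 libraries. Without any 1 of the 4 libraries, 2 of the B-cell markers were called lower; the calls of Ighm and of Ighd (1.29 and 2.19 CPM against 4.27 and 5.5 CPM) depended on single libraries, and that of Ighm was also lost without the mouse block (adjusted p 0.153); Ighm was not called without FoxP3+CD25- replicate 1 (0.106), without FoxP3+CD25- replicate 2 (0.135), without FoxP3+CD25+ replicate 1 (0.119) or without FoxP3+CD25+ replicate 2 (0.0891); Ighd was not called without FoxP3+CD25- replicate 1 (0.143), without FoxP3+CD25- replicate 2 (0.199), without FoxP3+CD25+ replicate 1 (0.149) or without FoxP3+CD25+ replicate 2 (0.14). Cd74, the invariant chain of MHC class II, which activated T cells can also express, had 5.17 and 6.78 CPM against 31.6 and 37.3 CPM, and Cd79b, a chain of the B-cell receptor, had 4.04 and 2.41 CPM against 14.6 and 14.4 CPM. FoxP3+CD25- cells were lower for both, and the part of B cells in the contrast was not tested.

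Of 10 markers of NK cells and innate lymphoid cells, 4 were tested and 2 called lower, beside 9.0% of the genes tested (1 without FoxP3+CD25- replicate 2 and 1 without FoxP3+CD25+ replicate 1). Their sum was 7.6 and 5.69 CPM in FoxP3+CD25- cells against 40.7 and 36.9 CPM in FoxP3+CD25+ cells. The most abundant was Il1rl1, the receptor for IL-33, which is also in the Treg signature and had 3.56 and 1.86 CPM against 29.1 and 26.3 CPM, while Klra8 and Klre1 had no count and Ncr1 and Klrb1c were under 1 CPM. Eomes, a factor of NK cells and of some T cells, had 3.07 and 1.86 CPM against 2.9 and 6.68 CPM, with overlapping groups, and was not called; it was called lower in the 6 KO libraries alone (adjusted p 0.0277), in the 4 compared libraries alone (0.023) and without FoxP3+CD25- replicate 1 (0.0382). Of 7 markers of CD8 and gamma-delta T cells, 2 were called lower, beside the same share (1 without FoxP3+CD25- replicate 2), with sums of 29.9 and 33.5 CPM against 47.5 and 40.9 CPM. The most abundant, Trdc, was not called (17.5 and 17.3 CPM against 12.7 and 10.7 CPM); Tcrg-C1 was not called either, with 0.323 and 0.656 CPM against 2.29 and 2.49 CPM. In the 6 KO libraries alone and the 4 compared libraries alone Trdc was called higher (0.0124 and 0.00911) and Tcrg-C1 lower (0.00274 and 0.00161). The 2 called were Tcrg-C4, with 0.162 and 0.219 CPM against 9.92 and 9.83 CPM, and Tcrg-C2, with 0.162 and 0 CPM against 4.58 and 4.19 CPM, which rest on few counts in FoxP3+CD25- cells and belong to a family of similar genes. Of 14 monocyte, macrophage and neutrophil markers 5 were tested and 0 called, with sums of 29.9 and 22.3 CPM against 30.7 and 17.7 CPM, the most abundant being Csf1r (17.6 and 16.6 against 13.9 and 12.4 CPM), and S100a9 and Ly6g had no count. Fcgr3 (1.78 and 0.438 against 0.61 and 0.131 CPM), Mpo (2.42 and 0 against 5.65 and 0 CPM) and Itgam (1.94 and 2.74 against 1.98 and 1.44 CPM) overlapped between the groups. Of 9 dendritic-cell markers 2 were tested and 0 called, with sums of 54.6 and 48.5 CPM against 61.5 and 48.9 CPM, the most abundant being Bst2 (52.5 and 47.4 against 57.2 and 45.1 CPM), Zbtb46 had 1.45 and 0.875 CPM against 2.75 and 3.01 CPM, and Batf3 had no count. Of 11 erythroid and platelet markers 2 were tested and 0 called, with sums of 5.17 and 6.78 CPM against 6.87 and 4.72 CPM, the most abundant being Itga2b (3.23 and 4.05 against 2.29 and 2.49 CPM), Alas2 had 0.162 and 1.42 CPM against 1.37 and 0.786 CPM, and Pf4 had no count. In the last 3 lists 1, 1 and 0 genes had an unadjusted p under 0.05 in edgeR (Csf1r and Zbtb46), and DESeq2 called 0 in each. Zbtb46 was called lower in the 6 KO libraries alone (adjusted p 0.0202) and in the 4 compared libraries alone (0.0161), and Mpo in the 4 compared libraries alone (0.0487). The part of these cell types in the contrast was not tested.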

How the data were processed

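The deposited count tables of the 10 libraries, made by the authors with HISAT2 2.1.0 and HTSeq 0.11.1 on GRCm38, were used as deposited. HTSeq tallies of unassigned reads (71.5% to 74% of each library) were set aside. Of 48321 symbols, 28262 had a count and 13796 passed filterByExpr (minimum count 10). All 10 libraries were fitted in edgeR 4.0.16 (limma 3.58.1, R 4.3.3) with TMM factors, the mouse as a block and population within genotype, by two-sided quasi-likelihood tests with Benjamini-Hochberg adjustment over all genes tested; DESeq2 1.42.0 was an alternative. The block rests on numbers in the titles: deviations of replicate 1 from replicate 2 correlated across genes at 0.43 between the KO FoxP3+ groups and at 0.30 between the WT groups, against -0.01 to 0.11 between genotypes. Replicates of each group differed beyond sampling noise (chi-square per degree of freedom 7.27 to 21). The fit had 3 residual degrees of freedom, so its error rests on few libraries; an exact permutation of 2 against 2 libraries cannot reach p under 0.05 and was not used.

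Genes were named by rule: Satb1, Foxp3 and Il2ra; 11 genes named, as gene or protein, in the paper's text or figures; the 10 of lowest p called in each direction with libraries that do not overlap; up to 4 of lowest p in each gene list; and the 6 of lowest p in the difference from the WT contrast, 78 genes in all. Others are stated as named after their values were seen. The members and lists were chosen with earlier results of these data known. Positions are from GENCODE M21 (141 of 142 named genes matched).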

Additional observations from a re-analysis of the deposited data

How the results depend on the processing

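Counts are given as genes called, called higher and called lower in the FoxP3+CD25- group, called in the difference from the WT contrast, and called in the same direction as in WT Treg; the reference values are 2090, 849, 1241, 43 and 1500. Without the mouse block they were 967, 311, 656, 2 and 785. At an adjusted p under 0.01 they were 1120, 389, 731, 9 and 901, because fewer genes pass a stricter threshold. With DESeq2 they were 1220, 427, 793, 53 and 951, so the count for the difference was above its reference and the others were below. The 6 KO libraries alone gave 3672, 1660 and 2012, and the 4 compared libraries alone 3686, 1661 and 2025. With 1 library left out, which removes 1 of the pairs, the ranges were 618 to 806, 208 to 250, 410 to 556, 3 to 6 and 563 to 729. Except for the stricter threshold and the left-out libraries, the cause was not tested. Under no filter, a CPM filter, RLE factors, library size alone and the legacy method, these counts stayed within 1.5 times the reference. No named gene was called in the opposite direction under any alternative run for it. Of 142 named genes, 93 kept their call or lack of one under all alternatives run for them. The stricter threshold was not run for named genes. The fits of the 6 KO libraries alone and of the 4 compared libraries alone did not cover every named gene. The alternatives for gene lists, for the difference of named genes and for genes named afterwards were chosen after seeing the data. With 2 mice a group, spread between animals is poorly known, and for genes near the floor of 0.328 to 0.485 CPM small shifts were not detectable at this depth.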
